A study of Caenorhabditis elegans with 5 samples.

Results

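The Hedgehog-related and patched-related genes of Caenorhabditis elegans are the genes whose symbol begins with grd- (groundhog), grl- (ground-like), wrt- (warthog), hog-, ptr- (patched-related) or ptc- (patched), together with qua-1 (quahog). By this rule 84 of the 45251 rows of the count tables belonged to them, namely 16 grd, 31 grl, 10 wrt, 2 ptc and 23 ptr genes, hog-1 and qua-1. RNA was measured by 3' tag sequencing in whole worms of N2, the usual wild-type strain, labelled as L4 (the last larval stage) to adult. The exposed group was 3 libraries from worms kept for 24 h on agar plates with bisphenol TMC (BPTMC), a bisphenol, and the control group was 2 libraries from worms kept for 24 h on plates with dimethyl sulfoxide (DMSO). All plates were at 20 °C and carried Escherichia coli OP50 as food, and the labels give a final concentration of 1 mM for both chemicals. The study set gene expression under BPTMC against the control, and its title names mitochondrial activity, lifespan and healthspan.

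In flies and vertebrates, secreted Hedgehog ligands bind the receptor Patched, a membrane protein with a sterol-sensing domain, and thereby release a signal that ends in transcription factors of the Gli family. C. elegans is generally held to lack a true Hedgehog ligand and the signal transducer Smoothened, but it has many secreted proteins that share parts of Hedgehog, and a large family of Patched relatives. In the worm these genes are known mostly from epithelia, glia and the epidermis, where several are needed for moulting and for building the cuticle, and from the germ line, where ptc-1 is needed for cytokinesis.

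The libraries held 16531114 to 23579588 counts in BPTMC and 19819975 to 24362712 in DMSO. Values are given as CPM, the counts scaled to a fixed library total, after normalisation by the trimmed mean of M values (TMM), where 1 read was worth 0.0448 to 0.0510 CPM. The libraries of a group stood far apart. The summed level of 20 oocyte and early embryo genes ran from 1801 to 7556 CPM in BPTMC and from 3933 to 9319 CPM in DMSO, and that of 34 sperm genes from 75.8 to 456 CPM in BPTMC and from 66.4 to 121 CPM in DMSO. Defining markers of the tissues expected in whole worms were read, with 11 of 11 intestine, 10 of 10 body wall muscle and 12 of 12 neuron genes above the filter on low counts, against 6 of 11 glia genes. In whole worms, a change in the number of cells of a type and a change in RNA per cell cannot be told apart. Nothing in the labels tells if replicates were separate cultures, so p-values measure the spread between these libraries, which may be technical.

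No member passed the test of BPTMC against DMSO over all 14238 genes tested. With p-values adjusted by Benjamini-Hochberg, the quasi-likelihood test of edgeR called 0 of the 48 members tested higher, where 0.105% of all genes were called, and 0 lower, where 0% were. At an unadjusted p under 0.05, 6 of the 48 members were higher, against 7% of all genes, and 2 were lower, against 0.4%. The 6 were ptr-22, ptr-3, ptr-23, grl-21, grl-14 and wrt-10, and the 2 were grd-4 and grd-13. DESeq2 called 1 member higher, ptr-22, where it called 1.67% of all genes higher, and 0 lower, where it called 0.0211%. limma-voom called 0 members in either direction, against 0.00702% of all genes higher and 0% lower. Without BPTMC replicate 1, the members higher and lower by this measure were 4 and 1, against 4.38% and 0.551% of all genes in the same fit. Without BPTMC replicate 2 they were 8 and 5, against 10.7% and 0.889%, and without BPTMC replicate 3 they were 3 and 1, against 4.62% and 0.25%. Without DMSO replicate 1 they were 2 and 0, against 6.53% and 0.182%, and without DMSO replicate 2 they were 3 and 1, against 2.97% and 0.419%. These fits tested 41 to 56 members. The other 36 members were below the filter on low counts. A gene read in 1 group only can pass that filter through that group, so counts and medians over the tested members describe these libraries and are not evidence of a change.

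**Figure D1:**
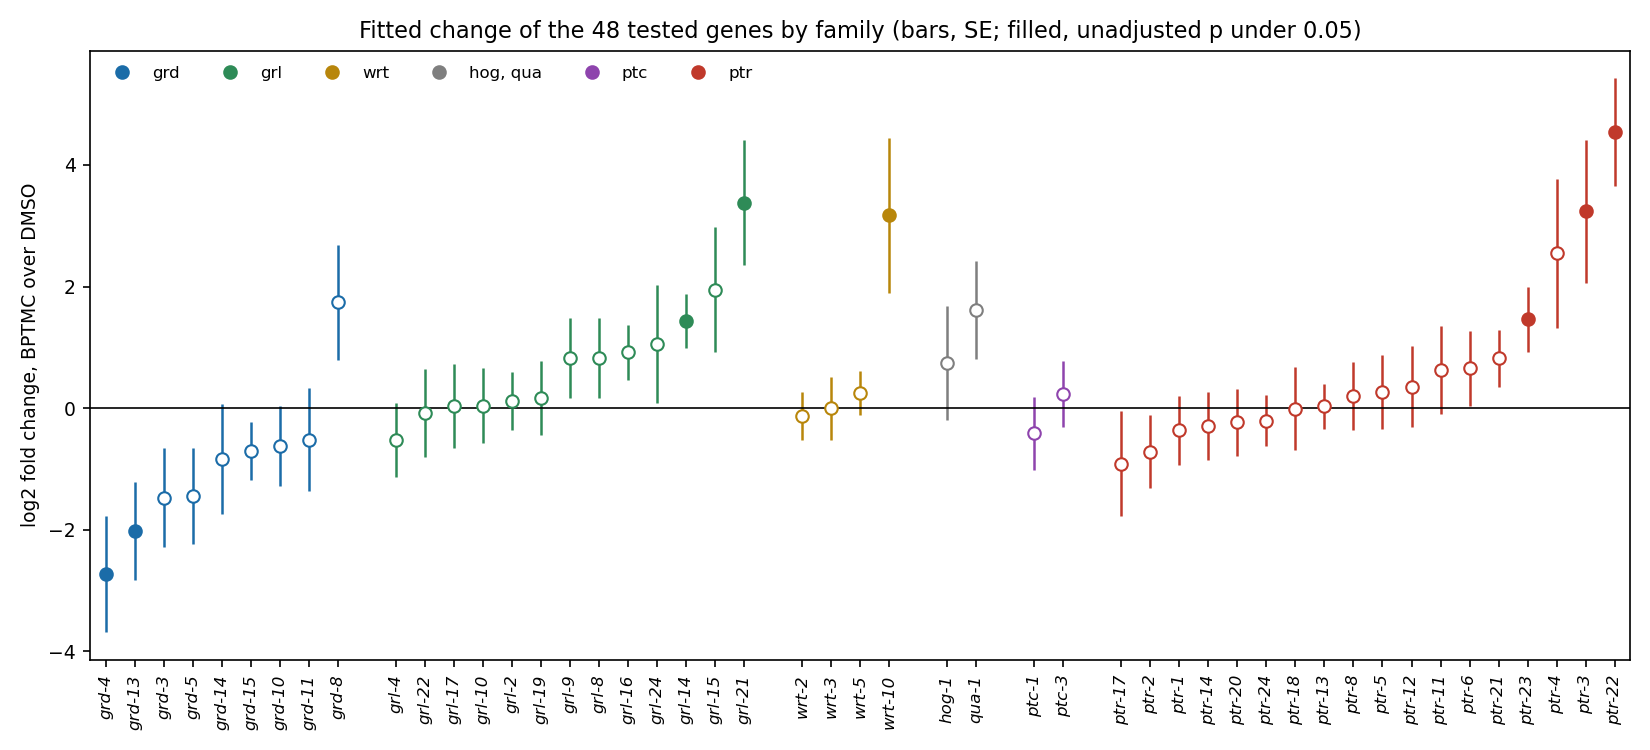
Fitted log2 fold change of BPTMC over DMSO (y axis) with its standard error for the 48 members above the filter on low counts, sorted within each family (x axis), where filled points have an unadjusted p under 0.05. In the grd family 8 of 9 points lie below 0 and in the grl family 11 of 13 lie above it, while the ptr points spread from -0.91 to 4.54.

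The fitted values of the families lay on different sides of 0, which was not put to a test. Of the 9 grd genes tested 8 had a negative fold change, with a median log2 fold change of -0.84. Of the 13 grl genes 11 were positive, with a median of 0.82. Since grl-8 and grl-9 had the same count in every library, counting them once gives 10 of 12 positive and a median of 0.50. The 4 wrt genes had a median of 0.12, with 2 positive and 2 negative, and the 18 ptr genes a median of 0.24, with 11 positive and 7 negative. Leaving out BPTMC replicate 1 gave a wrt median of 0.0059, and leaving out BPTMC replicate 3 gave 0.33. In both fits wrt-10 was below the filter and the median was the value of wrt-3. Leaving out DMSO replicate 1, a fit that tested 56 members against 48 in the main fit, gave a wrt median of 1.22. It was 1.71 without members that share exons with another gene, which left only wrt-5 (0.25) and wrt-10 (3.17). The ptr median was 0.013 without DMSO replicate 1, 0.034 without BPTMC replicate 1 and 0.42 without BPTMC replicate 2. The grl median was 0.52 without BPTMC replicate 3 and 1.25 without DMSO replicate 2. Over all members 28 of 48 were positive and 20 negative, with a median of 0.14, whereas 45.5% of all tested genes were positive and 54.5% negative, with a median of -0.09. Every BPTMC library lay above every DMSO library for 12 of the 48 members, against 13.4% of all tested genes, and below for 6, against 9.96%. Without BPTMC replicate 2 the 12 became 19, where 24.8% of all genes did so, and without DMSO replicate 1 the 6 became 14, where 30.2% did. For 6 of the 9 grd genes every BPTMC library lay below every DMSO library. These 6 were grd-3, grd-4, grd-5, grd-13, grd-14 and grd-15. For 6 of the 13 grl genes every BPTMC library lay above every DMSO library. They were grl-8, grl-9, grl-14, grl-15, grl-16 and grl-21, or 5 of 12 with grl-8 and grl-9 counted once. With scaling by total counts, grl-8, grl-9 and grd-15 overlapped. Such separation was also seen upward in grd-8, in wrt-5 and wrt-10, and in ptr-21, ptr-22 and ptr-23, and in no other tested member.

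Groundhog genes encode secreted proteins with a cysteine-rich ground domain. They were the family with the lowest median. grd-5 (WBGene00001694), the grd gene with the most counts, is a protein-coding gene on the plus strand of chromosome V, at 8619032 to 8619870 on WBcel235. It had 22.8, 74.2 and 6.46 CPM in BPTMC replicates 1, 2 and 3, against 98.4 and 89.4 CPM in DMSO replicates 1 and 2. The groups did not overlap, but BPTMC replicate 2 lay near the DMSO libraries and BPTMC replicate 3 far below them. The fitted log2 fold change was -1.45 ± 0.79 (SE), with edgeR adjusted p = 0.759, and it ran from -2.58 without BPTMC replicate 2 to -0.92 without BPTMC replicate 3. grd-3 (WBGene00001692), named after its values were seen, had the BPTMC libraries in the same order. It had 11.8, 45.1 and 3.76 CPM in BPTMC and 55.9 and 56.5 CPM in DMSO, a log2 fold change of -1.47 ± 0.81 (edgeR adjusted p = 0.764).

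The 2 grd genes with an unadjusted p under 0.05 were low. grd-4 (WBGene00001693; chromosome X, 8501222 to 8502288) had 3, 9 and 0 reads in BPTMC and 34 and 26 in DMSO. Its log2 fold change was -2.73 ± 0.95, with an edgeR adjusted p = 0.563. grd-13 (WBGene00001702; chromosome IV, 3438312 to 3439507) had 8, 10 and 1 reads in BPTMC and 31 and 26 in DMSO. Its log2 fold change was -2.02 ± 0.80, with an edgeR adjusted p = 0.632. In both genes BPTMC replicate 3 was the lowest library, as in grd-3 and grd-5.

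Several of these genes are neighbours. grd-13, grd-3 and grd-10 follow each other on chromosome IV with gaps of 147 and 601 bases, and grd-14 and grd-4 lie 184 bases apart on chromosome X, whereas grd-5 stands elsewhere, on chromosome V. The neighbours were named after their values were seen. grd-14 had 38, 38 and 1 reads in BPTMC and 47 and 53 in DMSO, so that BPTMC replicates 1 and 2 lay close to DMSO and replicate 3 did not. grd-10 had 2.05, 3.42 and 0.814 CPM in BPTMC, against 4.34 and 2.12 CPM in DMSO, and its groups overlapped. BPTMC replicate 3 was thus the lowest of the 5 libraries in all 6 of grd-3, grd-4, grd-5, grd-10, grd-13 and grd-14. Over the 9 tested grd genes the mean level, in log2 CPM around each gene's own mean, was -0.28, 0.30 and -1.48 in BPTMC replicates 1, 2 and 3, against 0.75 and 0.71 in DMSO. None of these 6 genes shares exon sequence with another annotated gene, and without the members that do, 6 of 6 grd genes were negative with a median of -1.46 and 5 of 6 lay below DMSO in every library.

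The other grd genes did not share this order. grd-8 had 0.831, 0.306 and 0.508 CPM in BPTMC and 0.179 and 0.141 CPM in DMSO, a log2 fold change of 1.74 ± 0.95 (edgeR adjusted p = 0.752), and was the only tested grd gene with a positive value. grd-15 had 1.71, 2.14 and 2.44 CPM in BPTMC and 3.09 and 3.76 CPM in DMSO. grd-11 had 5, 6 and 10 reads in BPTMC and 7 and 15 in DMSO. No read fell on grd-2, grd-6 or grd-12 in any library.

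**Figure D2:**
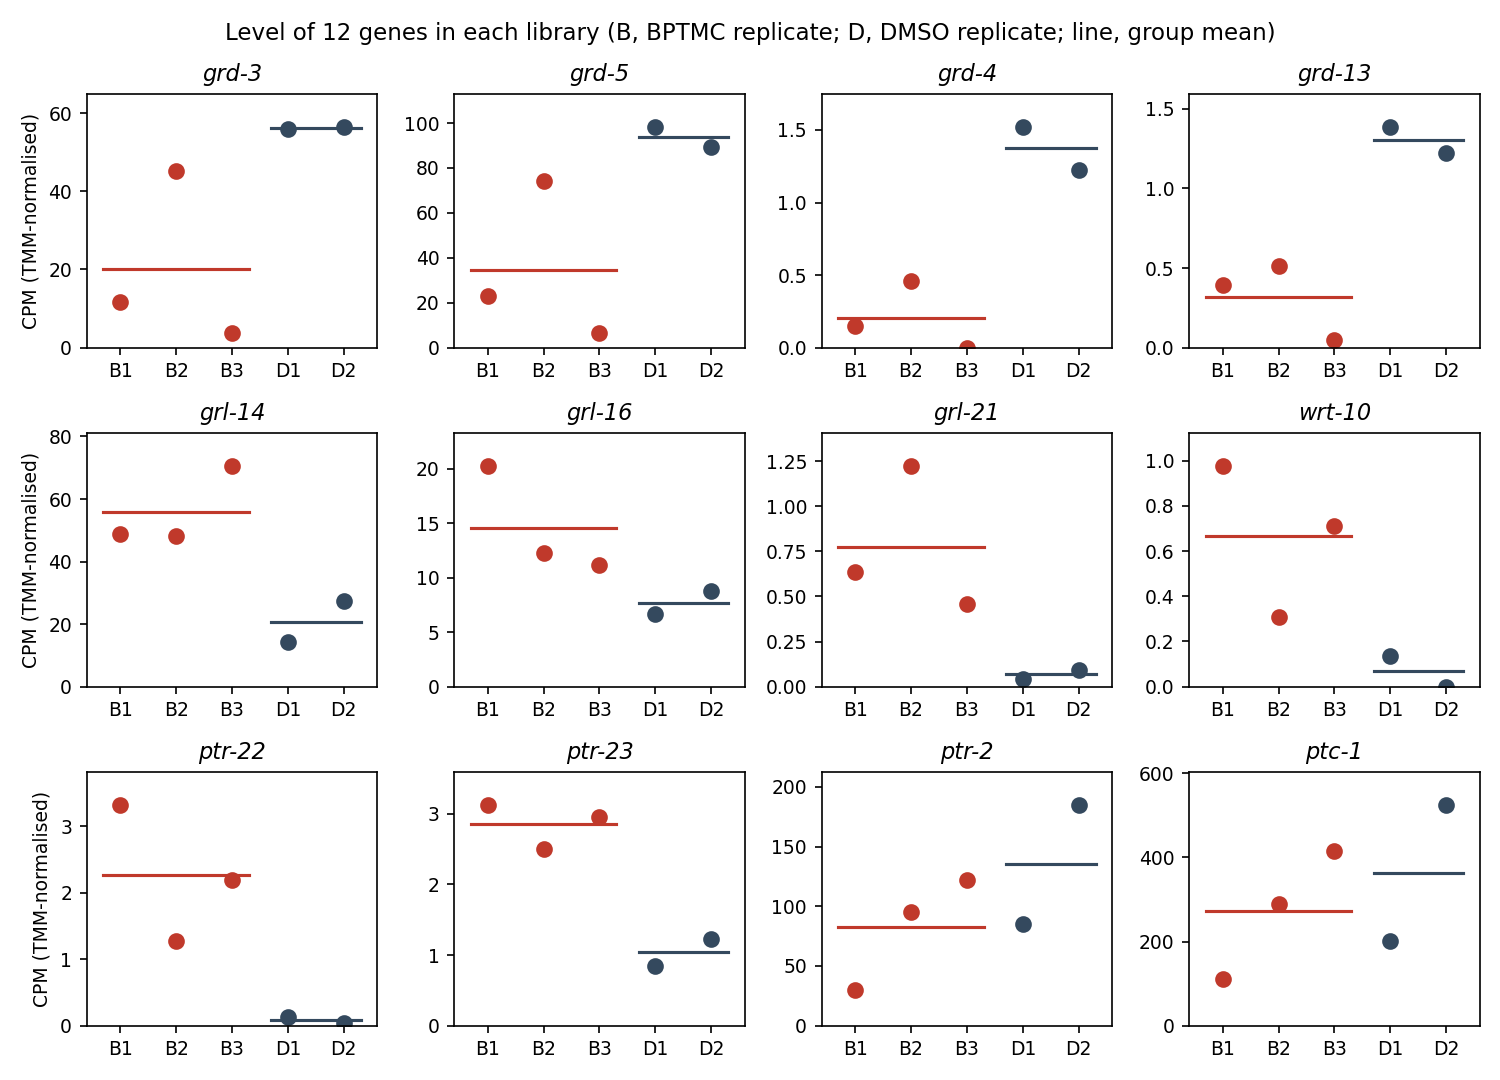
Level of 12 genes in CPM (y axes, each from 0) in the 3 BPTMC libraries (B1 to B3) and the 2 DMSO libraries (D1 and D2), with lines at the group means. The 4 grd genes are lowest in B3 and highest in the DMSO libraries, grl-14, grl-16, grl-21, wrt-10, ptr-22 and ptr-23 lie higher in every BPTMC library than in any DMSO library, and the groups overlap for ptr-2 and ptc-1.

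Ground-like genes encode secreted proteins with a shortened form of the ground domain. grl-21 (WBGene00001730; chromosome IV, 10737474 to 10738191) has been linked in C. elegans to the control of fat storage together with ptr-24 and the nuclear receptor nhr-25. It had 13, 24 and 9 reads in BPTMC and 1 and 2 in DMSO. All BPTMC libraries lay above both DMSO libraries, and the ratio of pooled counts was 11.2 with an exact 95% interval of 3.60 to 56.3 for counting error. The log2 fold change was 3.38 ± 1.03, with an edgeR adjusted p = 0.439. ptr-24, by contrast, had 17.9, 16.1 and 10.3 CPM in BPTMC and 18.8 and 15.2 CPM in DMSO, with overlapping groups and a log2 fold change of -0.20 ± 0.41. nhr-25 was low in every library, at 0.342, 0.459 and 1.12 CPM in BPTMC and 0.403 and 0.517 CPM in DMSO.

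grl-14 (WBGene00001723; chromosome V, 20825559 to 20827743, plus strand) held many more counts than grl-21. It had 48.8, 48.1 and 70.7 CPM in BPTMC and 14.2 and 27.4 CPM in DMSO, or 55.9 ± 12.8 and 20.8 ± 9.34 CPM (SD, n = 3 and n = 2). The log2 fold change was 1.43 ± 0.45, with an edgeR adjusted p = 0.496. Its exons overlap those of sbt-1 on the opposite strand by 29 bases. Its counts were 9.26, 8.27 and 11.9% of those of sbt-1 in BPTMC and 2.01 and 3.97% in DMSO, while sbt-1 itself had a log2 fold change of -0.29 ± 0.32. The counts of grl-14 were thus no fixed share of those of its neighbour.

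grl-16 (WBGene00001725; chromosome I, 572173 to 575120) had 20.3, 12.3 and 11.1 CPM in BPTMC and 6.63 and 8.79 CPM in DMSO, a log2 fold change of 0.92 ± 0.45 (edgeR adjusted p = 0.723). The patched-related gene ptr-21, which lies 15463 bases from it and was named after its values were seen, had 15.8, 9.95 and 8.64 CPM in BPTMC and 5.11 and 7.85 CPM in DMSO. The 5 libraries stood in the same order for both genes. grl-15 had 17, 6 and 15 reads in BPTMC and 6 and 1 in DMSO, a log2 fold change of 1.95 ± 1.02 (edgeR adjusted p = 0.737) that was 3.58 without DMSO replicate 1 and 1.25 without DMSO replicate 2.

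grl-8 and grl-9, neighbours 136 bases apart on chromosome V, had identical counts, which were 25, 19 and 27 in BPTMC, against 10 and 19 in DMSO. The same reads were therefore counted for both, and the pair gives 1 measurement, with a log2 fold change of 0.82 ± 0.66 and an edgeR adjusted p = 0.834. Among the grl genes that share no exon sequence with another gene, 3 were tested (grl-4, grl-16 and grl-21), of which 2 were separated upward.

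The grl gene with the most counts stood in a nearly fixed ratio to a neighbour. grl-10 (WBGene00001719; chromosome V, plus strand) had 898, 639 and 251 CPM in BPTMC and 862 and 296 CPM in DMSO. Its exons overlap by 18 bases those of rpl-39, a ribosomal protein gene on the opposite strand. In BPTMC its counts were 42.5, 48.7 and 43.6% of the counts of rpl-39, and in DMSO 43.3 and 42%. The share was thus nearly constant, while the counts ran from 4930 to 18374 in BPTMC and from 6293 to 19241 in DMSO. Whether reads of grl-10 can be told apart from those of rpl-39 depends on a strand setting that no source used here gives. The summed level of the grl family, which grl-10 dominates, is for this reason not compared.

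**Figure D3:**
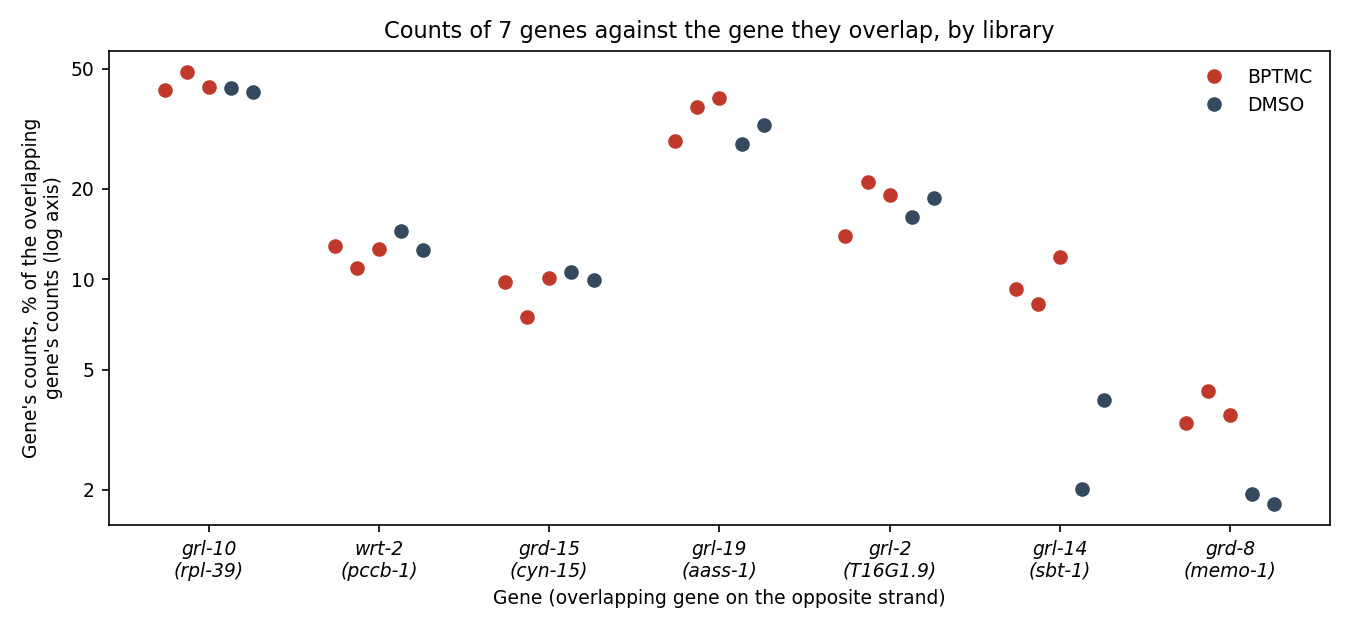
Counts of 7 members as a percentage of the counts of the gene whose exons they overlap on the opposite strand (y axis, log scale), with 1 point per library in the order BPTMC replicates 1 to 3 and DMSO replicates 1 and 2. The share of grl-10 stays between 42 and 48.7%, while that of grl-14 lies at 8.27 to 11.9% in BPTMC against 2.01 and 3.97% in DMSO.

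Other overlapping members were also near a fixed share of their neighbour. wrt-2 had 10.9 to 12.9% of the counts of pccb-1 in BPTMC and 12.6 to 14.5% in DMSO. Both wrt-2 (9.39 to 11.8 CPM) and pccb-1 (log2 fold change 0.01 ± 0.36) changed little, so this steady share does not show whether reads were shared. grd-15 had 7.49 to 10.1% of the counts of cyn-15 in BPTMC and 9.93 to 10.6% in DMSO. grl-24 overlaps F11E6.9 on the same strand, and had the same count as that gene in 4 of the 5 libraries and 93.3% of it in BPTMC replicate 1. In all, 18 of the 48 tested members share exon sequence with another annotated gene. grd-8 overlaps memo-1 by 11 bases and had 3.34 to 4.26% of its counts in BPTMC against 1.80 and 1.93% in DMSO.

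Warthog genes encode secreted proteins, several of which carry the self-cleaving Hint domain of Hedgehog. wrt-5 (WBGene00006951; chromosome IV, 4050006 to 4051639), which is essential in the worm embryo, was even within each group. It had 22.5, 24.2 and 23 CPM in BPTMC and 19.7 and 19.3 CPM in DMSO, or 23.3 ± 0.900 and 19.5 ± 0.337 CPM (SD, n = 3 and n = 2). The groups did not overlap, and the log2 fold change was 0.25 ± 0.36 (edgeR adjusted p = 0.840). wrt-2 had 9.44, 9.39 and 10.6 CPM in BPTMC and 9.67 and 11.8 CPM in DMSO, and wrt-3 had 3.37, 4.13 and 1.88 CPM in BPTMC and 3.27 and 3.01 CPM in DMSO, both with overlapping groups.

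wrt-10 and wrt-1 lie on opposite strands of chromosome II with their 3' ends 15 bases apart, and both were nearly unread in DMSO. wrt-10 (WBGene00006956; 7533262 to 7534563) had 20, 6 and 14 reads in BPTMC and 3 and 0 in DMSO, a ratio of pooled counts of 9.74 (interval 3.10 to 49.2) and an edgeR adjusted p = 0.622. wrt-1, below the filter and named after its values were seen, had 10, 5 and 6 reads in BPTMC and 3 and 0 in DMSO, a ratio of 5.11 (interval 1.53 to 26.8). Intervals cover counting error only. With 3' tag reads and no strand setting given, it cannot be told whether wrt-1 and wrt-10 are separate measurements.

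qua-1 (WBGene00004264; chromosome II, 8198803 to 8204004) is needed for moulting. It had 66, 12 and 36 reads in BPTMC and 17 and 10 in DMSO, with BPTMC replicate 2 between the DMSO libraries in CPM (3.23, 0.613 and 1.83 CPM in BPTMC, 0.761 and 0.470 CPM in DMSO). Its log2 fold change was 1.61 ± 0.81, with edgeR adjusted p = 0.729. Beside it, the mean level of 34 cuticle genes was 1.08, -0.36 and 0.21 in BPTMC and 0.07 and -1.0 in DMSO in log2 CPM around each gene's mean. All 5 libraries were in the same order for both. The mean level of 33 sperm genes had this order too, at 1.68, -1.14 and 1.08 in BPTMC and -0.28 and -1.34 in DMSO. The part of cuticle or sperm genes in the value of qua-1 was not tested. hog-1 had 20, 11 and 4 reads in BPTMC and 4 and 11 in DMSO, a log2 fold change of 0.74 ± 0.94 (edgeR adjusted p = 0.834). It was 0.24 without BPTMC replicate 1 and 1.24 without BPTMC replicate 3, and 0.16 without DMSO replicate 1 and 1.71 without DMSO replicate 2.

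Among the receptors, the 2 patched genes did not separate the groups. ptc-1 (WBGene00004208; chromosome II, 7893222 to 7900515) had 112, 290 and 417 CPM in BPTMC and 202 and 526 CPM in DMSO. The lowest library was BPTMC replicate 1 and the highest DMSO replicate 2, and the log2 fold change of -0.42 ± 0.59 (edgeR adjusted p = 0.840) turned to 0.42 without DMSO replicate 2 and to 0.083 without BPTMC replicate 1. ptc-3, which is required for growth and moulting, had 4.2, 1.79 and 4.27 CPM in BPTMC and 3 and 2.82 CPM in DMSO, a log2 fold change of 0.23 ± 0.54.

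ptr-2 (WBGene00004217; chromosome I, 3789309 to 3792797), the ptr gene with the most counts, had its libraries in the same order as ptc-1. It had 29.5, 95.5 and 122 CPM in BPTMC and 85.4 and 185 CPM in DMSO, a log2 fold change of -0.72 ± 0.60 (edgeR adjusted p = 0.834) that was -0.20 without BPTMC replicate 1 and -0.07 without DMSO replicate 2. The oocyte and early embryo genes stood in the same order of libraries as ptc-1 and ptr-2, with a mean level that was -1.55, 0.38 and 0.56 in BPTMC, against -0.29 and 0.90 in DMSO. 20 of these 20 genes were tested, and none was at 0 in any library. Their part in the values of ptc-1 and ptr-2 was not tested.

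ptr-22 (WBGene00004236; chromosome V, 18919221 to 18931379, minus strand) had the smallest p of all members. It had 68, 25 and 43 reads in BPTMC and 3 and 1 in DMSO, or 3.32, 1.28 and 2.19 CPM against 0.134 and 0.0470 CPM. The lowest BPTMC library was thus well above both DMSO libraries, and the log2 fold change was 4.54 ± 0.88. It passed with DESeq2 (adjusted p = 0.00179) but not with edgeR (adjusted p = 0.144) or limma-voom (adjusted p = 0.822). Leaving out each library in turn gave log2 fold changes of 4.06 to 5.40. Its span holds annotated non-coding RNA genes on both strands, none of which shares exon sequence with it.

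ptr-23 (WBGene00004237; chromosome I) varied little within each group. It had 3.13, 2.5 and 2.95 CPM in BPTMC and 0.851 and 1.22 CPM in DMSO, a log2 fold change of 1.46 ± 0.54 (edgeR adjusted p = 0.602). ptr-3 (WBGene00004218; chromosome II, 362484 to 367555) had 37, 5 and 52 reads in BPTMC and 1 and 6 in DMSO, so that BPTMC replicate 2 overlapped DMSO and replicates 1 and 3 stood apart. Its log2 fold change was 3.24 ± 1.17, with an edgeR adjusted p = 0.581.

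ptr-4 (WBGene00004219; chromosome X), which is needed to assemble the matrix from which the cuticle forms, had 36, 3 and 11 reads in BPTMC and 5 and 1 in DMSO. BPTMC replicate 1 alone carried most of these reads, and the log2 fold change of 2.54 ± 1.23 had an edgeR adjusted p = 0.717. ptr-18 (WBGene00004232; chromosome II), which keeps progenitor cells quiescent in starved newly hatched larvae by clearing the grl-7 product, had 23, 10 and 19 reads in BPTMC and 14 and 24 in DMSO. grl-7 itself, below the filter, had 10, 0 and 12 reads in BPTMC and 3 and 2 in DMSO, a ratio of pooled counts of 3.21 (interval 1.19 to 10.9).

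The remaining ptr genes lay between log2 fold changes of -0.91 (ptr-17) and 0.66 (ptr-6), apart from ptr-21 above, and none of them separated the groups. ptr-13, for example, had 21.8, 17.2 and 20.2 CPM in BPTMC and 19.2 and 19.4 CPM in DMSO, a log2 fold change of 0.03 ± 0.37. Of the 36 members below the filter on low counts, 5 had no read at all (grd-2, grd-6, grd-12, grl-13 and grl-29) and 31 had at least 1. grl-5, named after its values were seen, had 14, 4 and 4 reads in BPTMC and 0 in both DMSO libraries, at least 5.36-fold higher when the DMSO group is set to 3 reads, the most that a count of 0 allows.

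**Figure D4:**
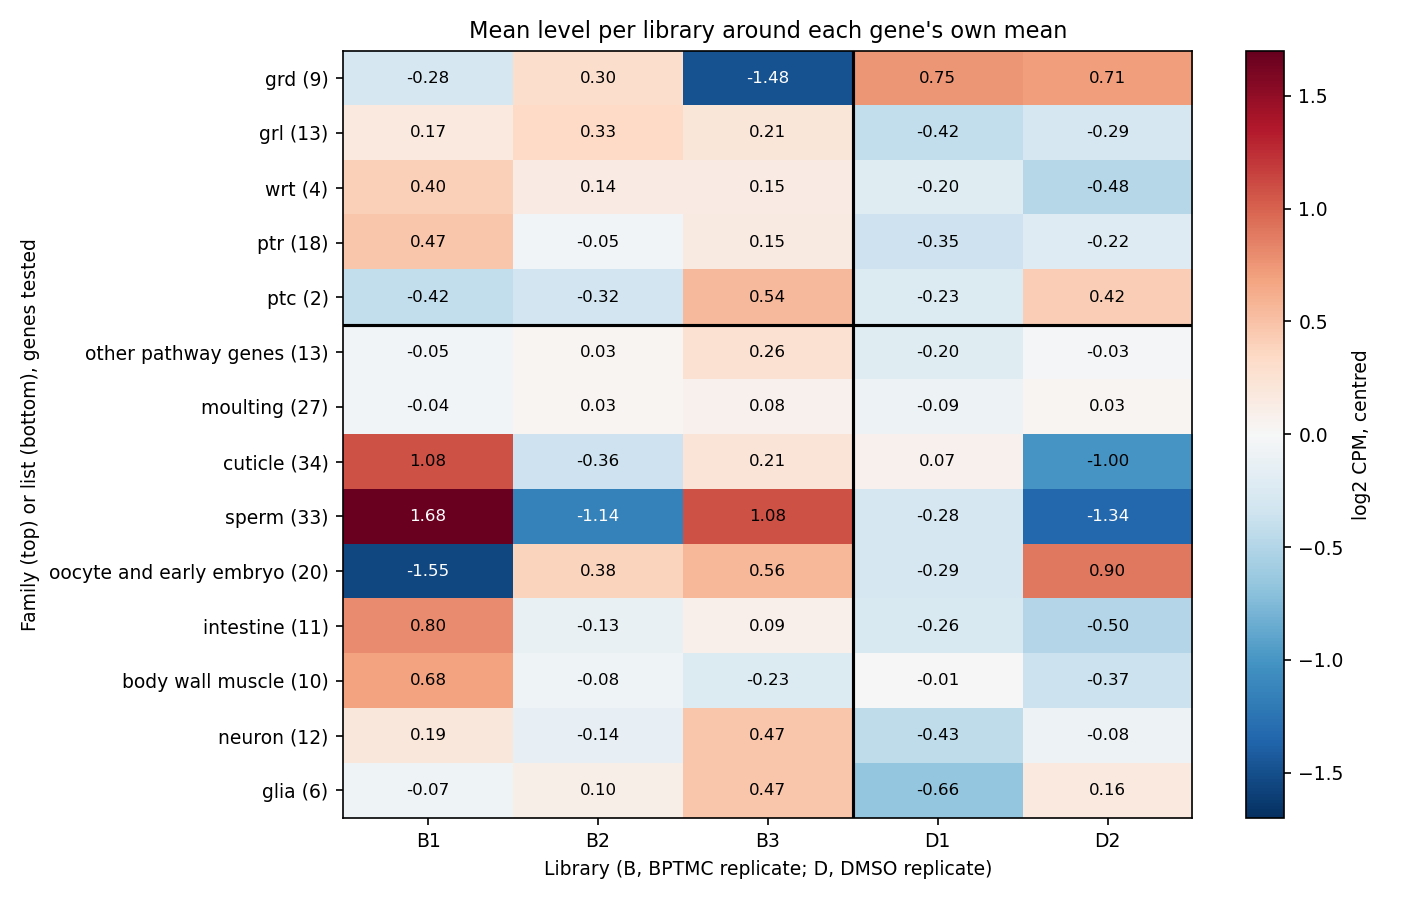
Mean level of each family (top rows) and of lists of other genes (bottom rows) in each library, in log2 CPM centred on each gene's own mean (colour and printed value), with the number of genes tested in brackets. The grd row reaches 0.30 at most in BPTMC and stands at 0.75 and 0.71 in DMSO, the grl and wrt rows are positive in every BPTMC library and negative in both DMSO libraries, and the sperm row runs from -1.14 to 1.68 within BPTMC.

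The library levels were set beside each other for the families and the lists. The grl genes, grl-8 and grl-9 both counted, stood at 0.17, 0.33 and 0.21 in BPTMC and at -0.42 and -0.29 in DMSO, and the 4 wrt genes at 0.40, 0.14 and 0.15 in BPTMC and at -0.20 and -0.48 in DMSO. The ptr genes stood at 0.47, -0.05 and 0.15 in BPTMC and at -0.35 and -0.22 in DMSO. In these 3 families both DMSO libraries were the lowest, and in the grd family both were the highest. By mean level, BPTMC replicate 3, the lowest library for grd genes, was not the extreme library of the sperm, cuticle or oocyte genes. The sperm genes stood at 1.68, -1.14 and 1.08 in BPTMC and at -0.28 and -1.34 in DMSO. Of 33 tested, 12 were higher and 0 lower by the unadjusted edgeR p, against 7% and 0.4% of all genes. Their median log2 fold change was 1.88, 0 were called, and the groups overlapped for all 33. BPTMC replicate 3 was the highest library of the neuron genes, at 0.47, and of the glia genes, at 0.47. By summed level over all 41 cuticle genes, however, BPTMC replicate 3 was the lowest library. This sum was 3376, 6026 and 2498 CPM in BPTMC and 5614 and 4955 CPM in DMSO. The sum over 10 body wall muscle genes was also lowest in BPTMC replicate 3, at 3132, 1777 and 1118 CPM in BPTMC and 2288 and 1312 CPM in DMSO. The part of these lists in the grd values was not tested. Of the other lists, the intestine genes also separated the groups, at 0.80, -0.13 and 0.09 in BPTMC and -0.26 and -0.50 in DMSO. Their summed level was 12636 to 28091 CPM in BPTMC and 11056 to 12375 CPM in DMSO, none of the 11 was at 0 in any library, and 2 had an unadjusted p under 0.05, both higher. The part of intestinal RNA in the family values was not tested. For the neuron, glia and muscle lists BPTMC and DMSO overlapped.

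No related gene outside the families passed the test. Of 13 tested genes linked to Hedgehog transport, sterol sensing or Gli signalling, 0 were called by edgeR, by DESeq2 or by limma-voom, and 1 was higher and 0 were lower by the unadjusted edgeR p. Their median log2 fold change was -0.07. The 1 was ncr-1, a homologue of the Niemann-Pick C1 sterol transporter, which had 10.6, 3.88 and 8.90 CPM in BPTMC and 2.19 and 2.59 CPM in DMSO, a log2 fold change of 1.7 ± 0.56 (edgeR adjusted p = 0.550). Its relative ncr-2 had 3.72, 1.38 and 3 CPM in BPTMC and 1.12 and 1.41 CPM in DMSO, with overlapping groups. tra-1, the worm's Gli homologue and a regulator of sex determination, had 9.78, 34.5 and 47.5 CPM in BPTMC and 29.1 and 56.9 CPM in DMSO, the same order of libraries as ptc-1. daf-6, a patched-related protein of glia, and che-14, a Dispatched relative of epithelia, stayed at or below 1.08 CPM in every library.

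Among 27 tested moulting genes none passed by edgeR, DESeq2 or limma-voom, and by the unadjusted edgeR p 1 (nekl-3) was higher and 0 were lower. Their median log2 fold change was -0.01, and their mean level differed little between libraries, at -0.04, 0.03 and 0.08 in BPTMC and -0.09 and 0.03 in DMSO. The summed level of the full list of 30 genes differed more. It was 215, 346 and 386 CPM in BPTMC and 252 and 427 CPM in DMSO. nhr-23, a nuclear receptor that drives moulting, named after its values were seen, had 7.24, 26.0 and 31.6 CPM in BPTMC and 19 and 43.5 CPM in DMSO, again in the order of ptc-1. Among 34 tested cuticle genes none passed by any of these tools, 3 were higher and 0 lower by the unadjusted edgeR p, and the median log2 fold change was 0.88.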

How the data were processed

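Per the labels' protocols, 3' tag libraries (Lexogen QuantSeq) were built from 500 ng of whole-worm RNA. The authors deposited whole-number read counts for each gene symbol, and Bowtie2, bedtools and the build WBcel235 are named in the submitters' processing notes. Versions, annotation and strand setting: not given in the sources used here. Of 45251 rows, 23140 held no read. BPTMC (n = 3) was set against DMSO (n = 2) over all genes in edgeR 4.0.16 (R 4.3.3): TMM scaling, filterByExpr with minimum count 10, glmQLFit, glmQLFTest, with Benjamini-Hochberg adjustment over the 14238 genes that were kept. Calls needed an adjusted p below 0.05. Standard errors (SE) are the size of the log2 fold change over the root of F. Library levels are log2 CPM (prior count 2) minus the gene's mean. The test was tried on simulated counts. Coordinates and exon overlaps come from Ensembl 115 (WBcel235), where all 84 members matched by symbol.

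Named members were the 4 with the smallest p and the 1 with the most CPM in each of grd, grl, wrt and ptr, every tested ptc and hog gene, qua-1, and grl-7, grl-21, ptr-2, ptr-4, ptr-18, ptr-24, wrt-5 and wrt-10. The members, lists and this rule were chosen with earlier results of these data known. Alternatives were RLE and total-count scaling, no filter or 5 CPM in 2 libraries, DESeq2 1.42.0, limma-voom (limma 3.58.1), rRNA genes left out, single libraries left out, and a replicate block. 3 list symbols (opt-2, mir-228 and dyf-4) had no row of that name.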

Additional observations from a re-analysis of the deposited data

How the results depend on the processing

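Each fit used 5 libraries, and low members rest on few reads. edgeR called 15 of all genes higher and 0 lower. The higher count was 2 with total-count scaling, 65 without a filter (2 lower), 3 at 5 CPM in 2 libraries, 238 with DESeq2 (3 lower), 1 with limma-voom and 4 without rRNA genes. Members called were 1 higher with DESeq2. Members with an unadjusted p under 0.05 were 6 above 0 and 2 below, against 7% and 0.4% of all genes. At 5 CPM, where only 14 members were tested, they were 1 and 0, against 5.6% and 0.188%. With limma-voom they were 3 and 4, against 3.95% and 0.471%. The grl median was 0.47 without a filter, 0.27 at 5 CPM 0.92 without members that share exons and 0.50 with grl-8 and grl-9 counted once. The grd median was -1.80 with limma-voom, and the wrt median was 1.71 without members that share exons, where only 2 wrt genes were left. At 5 CPM, 2 of 2 grd genes lay below DMSO and 2 of 5 grl genes above it in every library, and of 14 members 4 lay above and 2 below, against 11.2% and 8.41% of all genes. Without members that share exons, 2 of 3 grl genes and 7 of 30 members lay above, against 13.4% of all genes in the main fit. The alternatives on shared exons and on grl-8 and grl-9 and the counts of separated members were chosen after seeing the data.

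With the replicate number as a block, 3 of 48 members were called higher, namely grl-14, grl-21 and ptr-22. The 5 called lower were grd-3, grd-4, grd-5, ptc-1 and ptr-2. Of all 14238 genes in this fit, 1147 were called higher and 599 lower. The unadjusted p fell under 0.05 for 10 members above 0 and 6 below, where 15.4% and 10.9% of all genes did so. Deviations from the group means correlated at 0.67 in the first pair and 0.33 in the other. The crossed pairs stood at -0.67 and -0.33, as fixed in advance, because the deviations of 2 DMSO libraries mirror each other. With 2 pairs the libraries share only a number. Under the block ptc-3 turned to -0.048, ptr-24 to 0.0051 and wrt-3 to 0.25.

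Direction also turned for grl-10 (-0.013 with RLE and with DESeq2), wrt-2 (0.0031 at 5 CPM), ptr-18 (0.018) and wrt-3 (0.029) without rRNA genes. Leaving out 1 library at a time gave ranges of -0.47 to 1.00 for grl-10, -0.96 to 0.42 for ptc-1, -0.39 to 0.49 for ptr-18, -0.31 to 0.093 for ptr-24, -0.28 to 0.042 for wrt-2 and -0.18 to 0.33 for wrt-3. It gave 2 to 8 positive and 0 to 5 negative members with an unadjusted p under 0.05, 0 to 43 genes called higher, and 12 to 19 members above and 5 to 14 below DMSO in every library. For grd below it gave 5 to 7 and for grl above 6 to 8. With a library fewer the share of all genes above ran from 17.8 to 28.2% and below from 9.87 to 30.2%, and 11 to 17 grl and 7 to 10 grd genes were tested. Medians ran from 0.034 to 0.34 over all members, -1.13 to -0.92 for grd, 0.52 to 1.25 for grl, 0.0059 to 1.22 for wrt and 0.013 to 0.42 for ptr. The set of members above the filter also changed with the library left out, from 41 to 56 members, so these medians are over unlike sets of genes. The cause of these changes was otherwise not tested.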
